A study of Mus musculus with 4 samples.

Results

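Macrophages are set apart from other blood cells by a small group of transcription factors, proteins that bind DNA at particular short sequences and switch genes on or off. The 9 genes described here are Spi1, Maf, Cebpa, Cebpb, Bhlhe40, Bhlhe41, Tfec, Zeb2 and Id3. They encode factors of this kind, except Id3, whose product keeps other factors off DNA. They were taken by gene symbol from the 35869 genes listed in each sample. All 9 were found, and all 9 passed the filter on low values, which kept 16849 genes. RNA-seq was run on CD45+ cells of the epididymal white adipose tissue (eWAT), the fat pad beside the epididymis. WT male C57BL/6 mice received a normal diet (ND) or a high-fat diet (HFD) for 12 weeks from 8 weeks of age, and 2 samples were sequenced for each diet. CD45 is carried on the surface of immune cells, and microbeads against it were used to select cells from the stromal vascular fraction, the cells left after the fat cells are removed. The number of mice behind each library is not stated in the sources used here, so the p-values measure the spread between these samples only.

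PU.1, the product of Spi1, is the ETS factor without which macrophages do not form, and it opens enhancers together with the C/EBP factors C/EBPα (Cebpa) and C/EBPβ (Cebpb). c-MAF (Maf) holds macrophages in a differentiated, non-dividing state and acts on genes of tissue-resident macrophages, while BHLHE40 and BHLHE41 are repressors that bind E-boxes and support the self-renewal of resident macrophages. TFEC is a macrophage-restricted member of the MiT/TFE family, which drives genes of lysosomes and osteoclasts, ZEB2 maintains the identity of several tissue macrophages, and ID3 is an inhibitor that pairs with E proteins and keeps them off DNA and is best known from liver macrophages.

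RNA of immune cells was found in each library, and RNA of fibroblasts and spermatids lay beside it, as described below. Ptprc, the gene of CD45, was at 54.5 and 59.4 TPM (length-corrected transcript abundance, scaled to the same total in every sample) in ND and at 55.3 and 53.7 TPM in HFD. The summed TPM of 10 macrophage markers was 12304.8 and 12108.8 in ND and 12618.3 and 13371.6 in HFD. The largest part of this sum was Lyz2, at 7827.0 and 7618.1 TPM in ND and at 6506.1 and 7124.7 TPM in HFD. Single markers moved in both directions. Adgre1, Cd68 and Ctss rose, while Csf1r was at 313.9 and 312.4 TPM in ND and at 217.4 and 206.8 TPM in HFD. Marker lists of other cells differed between the diets as well. All 7 T cell markers tested, all 6 NK cell markers, all 6 markers of type 2 innate lymphoid cells (ILC2), all 5 mast cell markers and all 5 B cell markers tested fell in HFD, and the T cell sum went from 148.5 and 159.0 TPM to 19.1 and 34.8 TPM. Not all of these calls held under other settings with the 4 libraries kept. Those of Cd3g, Cd8a, Kit and Fcer1a ended with no filter, Kit and Fcer1a also with median-ratio scaling, Eomes and Pax5 with a pseudocount of 5, and 5 of the 7 T cell markers (Cd3e, Cd3g, Cd4, Cd8a and Cd5) with a replicate block. Quantile normalization ended those of Cd8a, Kit and Fcer1a, and that of Fcer1a also ended with a pseudocount of 0.1 or no variance trend. Of 7 fibroblast markers 5 rose, and their sum went from 593.5 and 637.8 TPM under ND up to 3031.9 and 6063.6 TPM under HFD. The call of Dpt ended with no filter, with no variance trend and with median-ratio scaling, that of Col1a2 with no filter, and with a replicate block 2 of the 5 were still called. The spermatid marker sum was 1752.5, 1764.7 and 2005.7 TPM in ND replicate 1, ND replicate 2 and HFD replicate 2 but 6506.8 TPM in HFD replicate 1, which stood apart. Early response genes that are known to be induced while tissue is dissociated fell in 12 of 13 cases, with sums of 31502.7 and 30028.0 TPM in ND and at 16943.6 and 16562.1 TPM in HFD. This count was 10 with median-ratio scaling, without Fos and Junb, and 9 with quantile normalization, without Fos, Junb and Zfp36. The part of these differences in the values of the transcription factors was not tested.

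**Figure D1:**
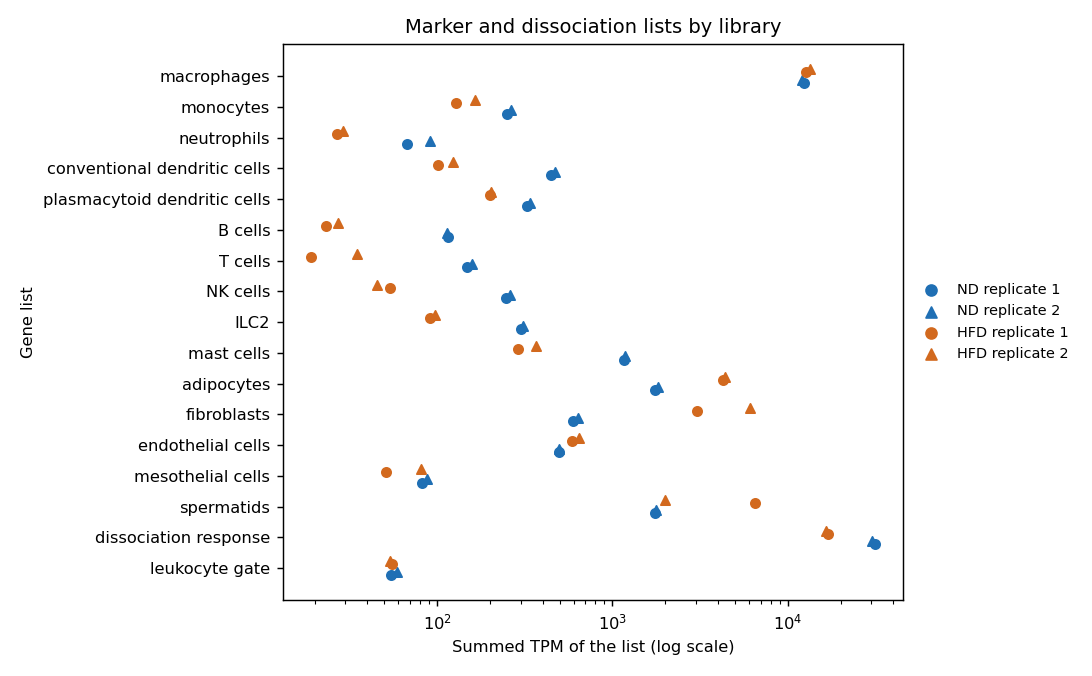
Summed TPM of each marker list (horizontal log axis) in the 4 libraries, with ND in blue and HFD in orange, circles for replicate 1 and triangles for replicate 2. The macrophage sums lie together between 12108.8 and 13371.6 TPM, the lymphocyte and mast cell sums are lower in both HFD libraries, the fibroblast sums are higher, and the spermatid sum of HFD replicate 1 stands alone at 6506.8 TPM.

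Before the levels, the sequences show how close some of these factors are to their relatives, since the reads of a gene can only be counted apart from those of a near-identical copy where the sequences differ. For 2 pairs of related genes the most similar stretch of 90 coding bases is printed, read from the GENCODE vM21 transcripts for GRCm38 and counted from the first base of the start codon, with the bases that differ within a pair in capitals. Each stretch lies in the part that encodes the DNA-binding domain, a basic helix-loop-helix in BHLHE40 and BHLHE41 and a basic leucine zipper in the C/EBP proteins.
Bhlhe40, bases 184 to 273 of 1236: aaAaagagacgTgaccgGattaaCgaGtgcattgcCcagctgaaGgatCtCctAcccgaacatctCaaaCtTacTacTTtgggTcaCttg
Bhlhe41, bases 160 to 249 of 1233: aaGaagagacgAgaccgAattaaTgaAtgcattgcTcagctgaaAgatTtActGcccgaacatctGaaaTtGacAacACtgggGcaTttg
Cebpa, bases 865 to 954 of 1080: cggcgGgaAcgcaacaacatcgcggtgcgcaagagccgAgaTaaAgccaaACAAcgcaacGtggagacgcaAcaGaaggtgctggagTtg
Cebpb, bases 682 to 771 of 891: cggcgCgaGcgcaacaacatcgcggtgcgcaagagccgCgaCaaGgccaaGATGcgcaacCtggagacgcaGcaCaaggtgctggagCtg
Bhlhe40 and Bhlhe41 were the same at 80.0% of the 90 bases and differed at 18. Cebpa and Cebpb were the same at 85.6%. Over the whole coding sequences, the longest identical run was 15 bases for Bhlhe40 and Bhlhe41 and 29 bases for Cebpa and Cebpb. Differences were thus spread over even the most similar stretch of each pair.

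Of the 9 genes, Maf and Bhlhe40 fell and Bhlhe41 rose in HFD. Maf fell 2.92-fold and Bhlhe40 1.60-fold, while Bhlhe41 rose 4.85-fold from a low level. Cebpa and Spi1 were higher in HFD by 1.47-fold and 1.23-fold, below the limit set on size, and the HFD values of Cebpb lay below its ND values without passing the test. Zeb2, Id3 and Tfec overlapped between the diets. A gene was called changed when limma gave a Benjamini-Hochberg adjusted p-value under 0.05 over all 16849 genes and the change was at least 1.5-fold on the log2(TPM + 1) scale, where a change in a weakly expressed gene comes out smaller than its ratio of TPM. By this rule 3 of the 9 were called, beside 18.4% of all genes tested. The 1 called higher stands beside 8.08% of all genes, and the 2 called lower stand beside 10.3%. With the adjusted p-value alone, 5 of the 9 passed, beside 27.3% of all genes. The HFD values did not overlap the ND values for 6 of the 9, 3 higher and 3 lower, beside 66.9% of all genes. These counts rest on 9 genes, and nothing particular to the group is read from them. The median log2 fold change was -0.11 over the 9 genes and 0.056 over all genes tested. Without ND replicate 1 or without ND replicate 2, 0 of the 9 genes and 0 of all genes were called by limma, although 3862 and 4024 genes had an unadjusted p-value under 0.05. Without either HFD replicate the same 3 genes were called. Over all genes there were 1361 calls higher and 1736 lower with all 4 libraries. This balance turned without HFD replicate 2. It also turned with a mean TPM of at least 5 (1141 higher, 1109 lower) and with a replicate block (407 higher, 405 lower).

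**Figure D2:**
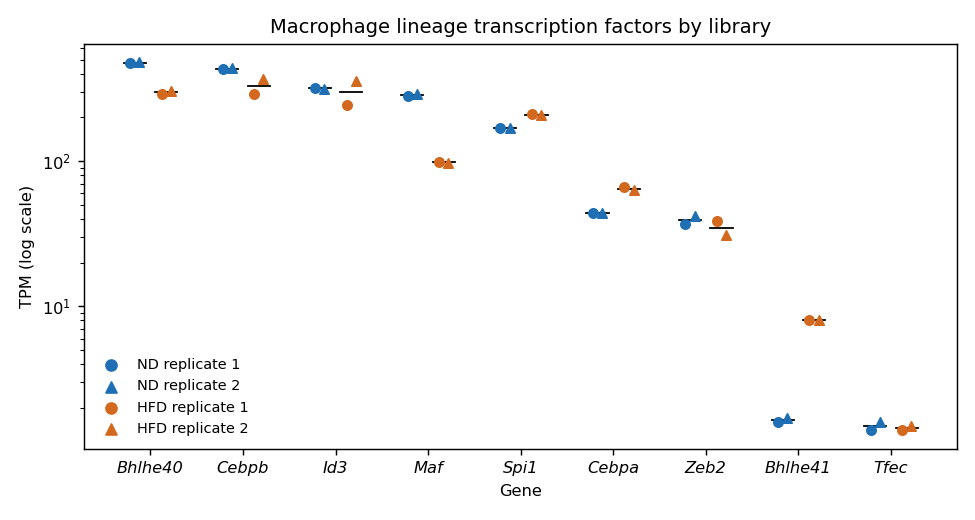
TPM of the 9 transcription factor genes (vertical log axis) in each library, ordered by their mean in ND, with ND in blue, HFD in orange and a short black line at the mean of each diet. Maf and Bhlhe40 are lower in both HFD libraries, Bhlhe41 goes from 1.65 to 8.0 TPM on average, and the HFD values of Id3 lie on both sides of its ND values.

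The level of the genes spanned a wide range. In ND, Bhlhe40 was the highest at a mean of 475.5 TPM, followed by Cebpb at 431, Id3 at 318, Maf at 285, Spi1 at 169.3, Cebpa at 43.8 and Zeb2 at 39.3 TPM. Bhlhe41 at 1.65 TPM and Tfec at 1.5 TPM closed the order, and this was the single pair of neighbours whose values overlapped. In HFD the top of the order merged, since the values of Cebpb (mean 328 TPM), Id3 (300.5 TPM) and Bhlhe40 (297 TPM) overlapped. They were followed without overlap by Spi1 at 209, Maf at 97.9, Cebpa at 64.5, Zeb2 at 34.8, Bhlhe41 at 8.0 and Tfec at 1.45 TPM. Maf and Spi1 therefore changed places, with Maf above Spi1 in both ND libraries and below it in both HFD libraries. In bulk RNA, fewer cells of a type and less RNA per cell cannot be told apart.

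Spi1 lies on the plus strand of chromosome 2 of GRCm38 (chr2:91082390-91115756). It was at 169.3 and 169.3 TPM in ND and at 210.6 and 207.1 TPM in HFD. Both HFD values were above both ND values, and the spread within a diet was small. The means of 169.3 ± 0 and 209 ± 2.47 TPM (SD, n = 2 each) gave a log2 fold change of 0.30 (SE 0.04, adjusted p = 0.0180 in limma), which is under the size limit. The adjusted p-value of Spi1 was 0.173 with median-ratio scaling and 0.0510 without a variance trend, and with quantile normalization the log2 fold change was 0.16 (adjusted p = 0.0675). Its relatives went the other way. Spib, known from B cells and plasmacytoid dendritic cells, was at 1.5 and 1.6 TPM in ND and at 0.3 and 0.5 TPM in HFD (log2 fold change -0.87, adjusted p = 0.0263). Spic, the factor of red pulp and other iron-handling macrophages, fell from 25.0 and 27.9 TPM to 6.8 and 8.5 TPM (log2 fold change -1.67, adjusted p = 0.0103). Spi1 was 6.77 and 6.07 times the level of Spic within the ND libraries and 31.0 and 24.4 times within the HFD libraries.

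Cebpa, a gene of a single exon on chromosome 7 (chr7:35119293-35121928, plus strand), encodes the C/EBP factor that commits progenitors to the myeloid lineage and also acts in fat cells. Its level was 43.9 and 43.7 TPM in ND and at 65.8 and 63.2 TPM in HFD. The groups did not overlap, and the log2 fold change of 0.55 (SE 0.05, adjusted p = 0.0113 in limma) lay just under the size limit of 1.5-fold. Marker genes of fat cells moved in both directions, with Lpl higher (log2 fold change 2.10), Car3 lower (-2.06) and Adipoq at 12.4 and 11.3 TPM in ND and at 8.6 and 4.2 TPM in HFD. Their part in the level of Cebpa was not tested.

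Cebpb, the C/EBP gene that is induced in inflammation, is also a single exon on chromosome 2 (chr2:167688915-167690418, plus strand). It was at 427.5 and 434.4 TPM in ND and at 288.4 and 368.2 TPM in HFD. Both HFD libraries were lower, but they lay 1.28-fold apart, and the log2 fold change of -0.40 (95% interval -0.82 to 0.013, adjusted p = 0.126 in limma) did not pass the test. Cebpb had a log2 fold change of -0.23 (adjusted p = 0.0518) when HFD replicate 1 was left out and of -0.58 (adjusted p = 0.0276) when HFD replicate 2 was left out, and of -0.50 (adjusted p = 0.0456) with quantile normalization, each still under the size limit. Tmem189, which runs through the locus on the opposite strand and shares 312 exon bases with Cebpb, rose from 319.5 and 336.0 TPM to 514.7 and 535.6 TPM (log2 fold change 0.68). The libraries were made with a stranded kit, but whether strand was used in counting is not stated, so reads of the 2 genes may be mixed in the shared bases. The ratio of Cebpb to Cebpa was 9.74 and 9.94 within the ND libraries and 4.38 and 5.83 within the HFD libraries, a difference of -0.96 on the log2 scale. Among the other C/EBP genes, Cebpe, which serves the maturation of granulocytes, fell from 35.4 and 34.7 TPM to 6.2 and 4.0 TPM (log2 fold change -2.59, adjusted p = 0.0101). Cebpd, an inflammatory C/EBP gene, was at 203.4 and 203.1 TPM in ND and at 100.5 and 152.8 TPM in HFD without passing the test (adjusted p = 0.114). Its log2 fold change of -0.71 became -0.41 when HFD replicate 1 was left out and -1.01 when HFD replicate 2 was left out. Cebpg was at 48.4 and 49.1 TPM in ND and at 55.3 and 54.6 TPM in HFD (adjusted p = 0.0756).

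Maf, on the minus strand of chromosome 8 (chr8:115682942-115707794), had the lowest log2 fold change of the 9 genes. It was at 279.3 and 291.6 TPM in ND and at 99.0 and 96.8 TPM in HFD. The 2 libraries of each diet lay close together and the diets were far apart. The means were 285 ± 8.70 and 97.9 ± 1.56 TPM (SD, n = 2 each), and the log2 fold change was -1.53 (SE 0.04, adjusted p = 0.00411 in limma). Only 2.7% of the genes tested had a log2 fold change at or below that of Maf. The antisense gene Gm15655 shares 440 exon bases with Maf, with the same doubt about strand as for Cebpb. The small MAF genes Maff, Mafg and Mafk, whose products lack an activation domain, had log2 fold changes of -0.24, -0.19 and -0.24, and none of these 3 passed the test. For Maff the value became -0.13 when HFD replicate 1 was left out and -0.36 when HFD replicate 2 was left out.

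Bhlhe40 and Bhlhe41, the related E-box repressors, moved in opposite directions. Bhlhe40 lies on the plus strand of chromosome 6 (chr6:108660629-108666925) and was at 473.3 and 477.7 TPM in ND and at 288.3 and 305.0 TPM in HFD. Both HFD libraries were well below both ND libraries, with means of 475.5 ± 3.11 and 297 ± 11.8 TPM (SD, n = 2 each) and a log2 fold change of -0.68 (SE 0.04, adjusted p = 0.00768 in limma). The antisense gene 0610040F04Rik, which shares 118 exon bases with Bhlhe40, went from 45.3 and 46.0 TPM to 24.7 and 24.2 TPM (log2 fold change -0.87). If strand was not used in counting, reads in those bases cannot be assigned to either gene. Bhlhe40 is itself an early response gene in many cells, and the 13 dissociation response genes had a median log2 fold change of -1.07. Their part in the value of Bhlhe40 was not tested.

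Bhlhe41, on the minus strand of the same chromosome (chr6:145858243-145865558), was at 1.6 and 1.7 TPM in ND and at 8.0 and 8.0 TPM in HFD. At the length of its exons these values stand for approximately 153 and 188 reads in the ND libraries against 869 and 756 in the HFD libraries, more than single reads. GENCODE vM21 has a gene on the opposite strand, Gm43909, that shares 1280 exon bases with Bhlhe41, so if strand was not used in counting its reads may be included. The log2 fold change was 1.76 (SE 0.09, adjusted p = 0.00559 in limma), higher than that of 98.3% of the genes tested. In spite of this rise Bhlhe40 remained the more abundant of the pair in each library. The ratio of Bhlhe40 to Bhlhe41 was 296 and 281 within the ND libraries and 36.0 and 38.1 within the HFD libraries, a difference of -2.96 on the log2 scale.

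The promoter of Bhlhe41 is printed because it holds the E-box that BHLHE40 and BHLHE41 themselves can bind. The RefSeq window for GRCm38.p6 runs from 250 bases before to 50 bases after the start of the gene (chr6:145865371-145865670, minus strand). RefSeq places that start 138 bases inside the gene as GENCODE draws it, so the window reaches into the GENCODE gene. Capitals mark CACGTG, which reads the same on both strands and is also bound by MiT/TFE proteins, and CAGGTG, the other strand of the E-box CACCTG that ZEB proteins bind.
Bhlhe41 promoter: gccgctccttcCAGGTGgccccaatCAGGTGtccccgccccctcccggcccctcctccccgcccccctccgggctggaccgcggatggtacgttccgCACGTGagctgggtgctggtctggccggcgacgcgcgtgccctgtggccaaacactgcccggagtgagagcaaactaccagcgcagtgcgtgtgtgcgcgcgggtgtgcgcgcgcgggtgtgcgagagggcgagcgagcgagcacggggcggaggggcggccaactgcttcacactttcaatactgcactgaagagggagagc
The window held 1 CACGTG and 2 CAGGTG. Of 32851 promoter windows of this length, 7.15% held CACGTG and 20.2% held CACCTG on either strand. A window was present for 6 of the 9 genes (Cebpa, Cebpb, Bhlhe41, Tfec, Zeb2 and Id3). The PU.1 core GAGGAA was found on 1 strand or the other in the windows of Tfec, Zeb2 and Id3 and is present in 28.3% of all windows. The C/EBP motif TTGCNNAA (10.8% of windows, both strands searched) was found in 1 of the 4 windows of Zeb2 and the AP-1 site TGANTCA (7.81%) in another, and the MAF motif TGCTGA (19.5%), which an AP-1 site can overlap, was found in no window of the 6 genes. A match of letters is a description and shows no binding.

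**Figure D3:**
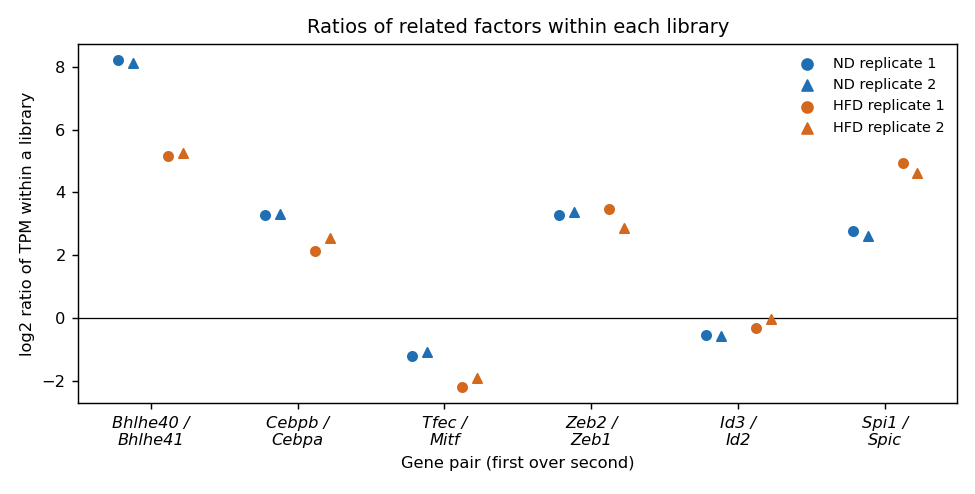
The log2 ratio of TPM of 6 pairs of related factors within each library, with ND in blue and HFD in orange. The ratio of Bhlhe40 to Bhlhe41 is lower in both HFD libraries by 2.96 on the log2 scale, the ratio of Spi1 to Spic is higher by 2.10, and the ratio of Zeb2 to Zeb1 overlaps.

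These ratios do not move with the scaling of a library. They did not overlap between the diets for 5 of the 6 pairs, beside 66.9% of all single genes, and nothing is read from that count. For each of the 5 an exact two-sided permutation test gave p = 0.333, the smallest value that 2 samples against 2 allow. The exception was Zeb2 over Zeb1, at 9.63 and 10.5 in ND and at 11.0 and 7.38 in HFD. Id3 over Id2 was 0.685 and 0.673 in ND and 0.806 and 0.978 in HFD, a difference of 0.39 on the log2 scale with the HFD values higher.

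Tfec lies on the minus strand of chromosome 6 (chr6:16833373-16898441) and had the lowest level of the 9 genes in both diets, with 1.4 and 1.6 TPM in ND and at 1.4 and 1.5 TPM in HFD. The groups overlapped, and the log2 fold change of -0.028 had a 95% interval from -0.35 to 0.29. The level corresponds to between 111 and 148 reads per library. Its relative Mitf, the factor of osteoclasts, mast cells and pigment cells, rose from 3.2 and 3.4 TPM to 6.4 and 5.6 TPM (log2 fold change 0.70, adjusted p = 0.0277), and the ratio of Tfec to Mitf went from 0.4375 and 0.471 to 0.219 and 0.268. Tfeb, the main regulator of lysosome genes, was at 13.1 and 11.6 TPM in ND and at 17.4 and 16.4 TPM in HFD (adjusted p = 0.0527), and Tfe3 had a log2 fold change of -0.26 (adjusted p = 0.111). Neither passed the test.

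Zeb2, a large gene on the minus strand of chromosome 2 (chr2:44983632-45117395), was at 36.6 and 41.9 TPM in ND and at 38.6 and 31.0 TPM in HFD. The log2 fold change was -0.17, with a 95% interval from -0.61 to 0.26 that includes a fall past the size limit. It was -0.33 for Zeb2 when HFD replicate 1 was left out and -0.020 when HFD replicate 2 was left out, and -0.27 and -0.079 when ND replicate 1 or ND replicate 2 was left out. Zeb2os, its antisense neighbour with 653 shared exon bases, was at 55.1 and 64.1 TPM in ND and at 44.8 and 35.8 TPM in HFD (adjusted p = 0.0818). Zeb1, best known from mesenchymal cells and lymphocytes, was at 3.8 and 4.0 TPM in ND and at 3.5 and 4.2 TPM in HFD.

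Id3, on the plus strand of chromosome 4 (chr4:136143497-136145755), varied more between the HFD libraries than any other of the 9 genes. It was at 320.7 and 315.0 TPM in ND and at 244.5 and 356.5 TPM in HFD. The HFD values, which lay 1.46-fold apart, enclosed the ND values, and the log2 fold change was -0.11 with a 95% interval from -0.74 to 0.52. Id3 had a log2 fold change of 0.17 when HFD replicate 1 was left out and of -0.38 when HFD replicate 2 was left out. The HFD libraries with the lower and the higher level of Id3 also had the lower and the higher fibroblast marker sum, and the former had the high spermatid sum. The part of either in the spread of Id3 was not tested. Among its relatives, Id4 fell from 9.9 and 12.8 TPM to 6.3 and 4.9 TPM (log2 fold change -0.90, adjusted p = 0.0498). This call of Id4 ended with any 1 library left out (adjusted p between 0.0979 and 0.253), with a pseudocount of 0.1 (0.0507) or 5 (0.0513), with no filter (0.0972) and without a variance trend (0.0544). Id2, which natural killer cells, innate lymphoid cells and dendritic cells require, was at 468.3 and 467.9 TPM in ND and at 303.2 and 364.4 TPM in HFD (log2 fold change -0.49, adjusted p = 0.0520). With quantile normalization Id2 was called, at -0.59 (adjusted p = 0.0171 in limma). It was -0.36 for Id2 when HFD replicate 1 was left out and -0.62 when HFD replicate 2 was left out. Id1 had a log2 fold change of 0.20 (adjusted p = 0.0506).

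**Figure D4:**
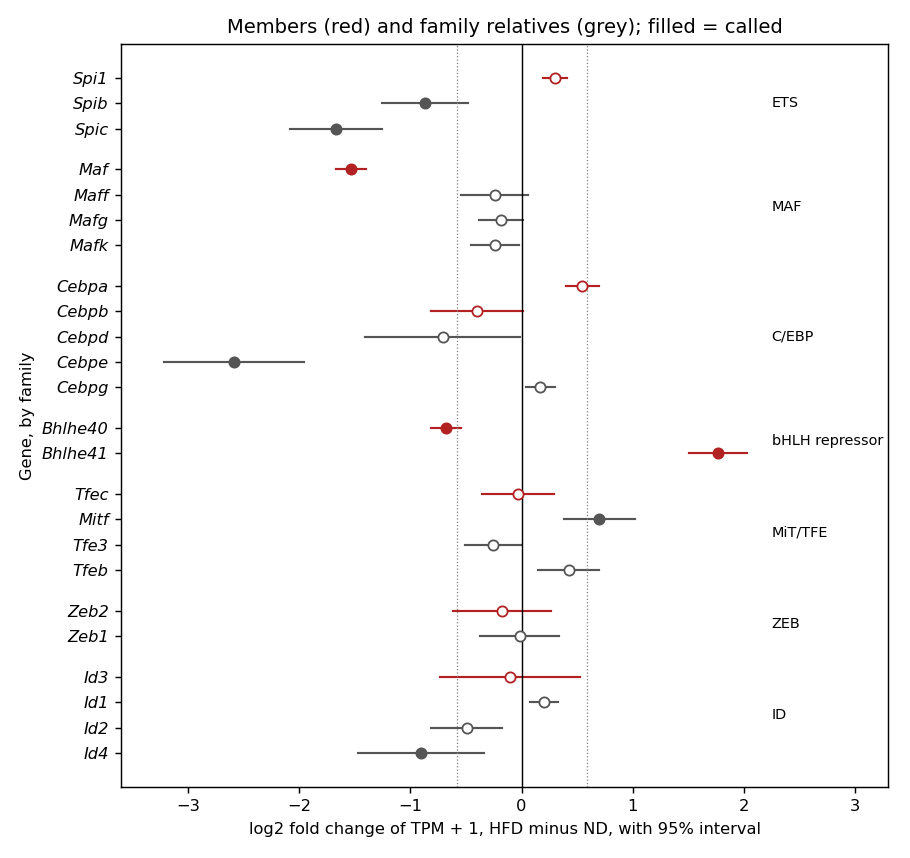
Log2 fold change of TPM + 1, HFD minus ND, with its 95% interval for the 9 genes (red) and 15 family relatives (grey), grouped by family, filled where called and with dotted lines at 1.5-fold. Maf and Bhlhe40 lie left of 0 and Bhlhe41 right of it, each filled, and the interval of Id3 is wide, from -0.74 to 0.52.

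Of the 15 family relatives 1 rose (Mitf) and 4 fell (Spib, Spic, Cebpe and Id4), with a median log2 fold change of -0.24. These shares stand beside 18.4% of all genes tested that were called, 8.08% higher and 10.3% lower. The call of Spib ended with a pseudocount of 5 or quantile normalization, and that of Mitf with a pseudocount of 5 or no filter. The 24 other myeloid transcription factors had 2 genes that rose and 11 that fell, with a median of -0.51 against 0.056 over all genes tested. The pair that rose were Nr1h3, the gene of the oxysterol receptor LXRα, from 4.7 and 4.9 TPM to 21.2 and 20.9 TPM (log2 fold change 1.93), and Pparg, the lipid-sensing nuclear receptor of fat cells and some macrophages, from 3.7 and 3.5 TPM to 9.7 and 9.2 TPM (log2 fold change 1.18). Batf3, required for cross-presenting dendritic cells, fell from 248.1 and 244.2 TPM to 82.3 and 71.8 TPM (log2 fold change -1.67). The others that fell were Myb, Batf, Irf4, Gata2, Klf2, Runx3, Gfi1, Rbpj, Nr4a1 and Klf4, with log2 fold changes between -1.41 and -0.63. With median-ratio scaling 10 of the 24 were called, without Klf4, Runx3 and Nr4a1, and with a pseudocount of 5 there were 11, without Gfi1 and Rbpj. The calls of Klf4 and Runx3 also ended with quantile normalization, that of Runx3 with no filter, and those of Myb and Rbpj without HFD replicate 1. Many of these are also factors of lymphocytes, innate lymphoid cells or mast cells, whose marker sums fell in the same libraries (NK cells from 247.2 and 260.7 TPM to 54.0 and 45.2 TPM, mast cells from 1169.5 and 1174.1 TPM to 289.6 and 364.6 TPM). Nr4a1, Klf2 and Klf4 are early response genes as well. The part of these cells and of dissociation in the falls was not tested.

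Other lists hold genes that these factors are known to act on. The 20 myeloid targets of PU.1 and the C/EBP factors had a median log2 fold change of 0.018, with 3 genes that rose and 1 that fell, a share of 20% called that lies near the 18.4% of all genes and is not a result about the list. Those that rose were Ctss, a lysosomal protease (log2 fold change 0.92), Cd68, a lysosomal membrane protein (0.86), and Itgb2, the β chain of the leukocyte integrins (0.76), and Csf3r, the receptor of the granulocyte growth factor, fell (-0.61), a call that ended with a pseudocount of 5 or quantile normalization. Csf1r, the receptor of the macrophage growth factor, was at 313.9 and 312.4 TPM in ND and at 217.4 and 206.8 TPM in HFD (log2 fold change -0.56, adjusted p = 0.00929), under the size limit. Cd14, the co-receptor for endotoxin, was at 2191.6 and 2170.7 TPM in ND and at 1955.5 and 2432.1 TPM in HFD. This list shares 8 genes with the macrophage markers.

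Of 13 genes linked to MAF, 9 fell and 1 rose, with a median log2 fold change of -0.83, beside 18.4% of all genes called (10.3% lower, 8.08% higher) and a median over all genes of 0.056. The list is described by these values, and nothing particular to it is read from them. Those with the largest falls mark perivascular resident macrophages. Cd163, the haemoglobin scavenger receptor, fell from 200.8 and 211.7 TPM to 38.6 and 20.4 TPM (log2 fold change -2.83), and Lyve1, a hyaluronan receptor, from 806.5 and 846.2 TPM to 154.5 and 98.5 TPM (log2 fold change -2.73). F13a1 (-2.19), Gas6 (-1.60), Folr2 (-1.09), Fcgrt (-0.96), Mrc1 (-0.83), Stab1 (-0.71) and C1qa (-0.62) fell as well, though the call of C1qa ended with median-ratio scaling or quantile normalization and that of F13a1 with no filter (adjusted p = 0.0542). C1qc, which encodes another chain of complement C1q, had a log2 fold change of -0.46 and C1qb one of -0.30, both under the size limit. The gene that rose was Il10, the anti-inflammatory cytokine that c-MAF induces in other settings, from 428.1 and 445.2 TPM to 778.2 and 882.1 TPM (log2 fold change 0.92, adjusted p = 0.0107). Of the genes linked to ID3 in resident macrophages, Timd4, a receptor for dying cells, fell from 71.5 and 76.3 TPM to 6.0 and 4.5 TPM (log2 fold change -3.59) and Marco, a scavenger receptor, from 12.0 and 11.2 TPM to 0.7 and 2.3 TPM (log2 fold change -2.41), a call that ended with no filter (adjusted p = 0.0640). Vsig4 and Cd5l did not pass the test, and Clec4f, the marker of liver Kupffer cells, was listed at 0 in each library.

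Of 14 MiT/TFE targets 13 were tested, since Oscar was listed at 0.1 TPM in each library, and 8 of the 13 rose, with a median log2 fold change of 1.17, beside 8.08% of all genes called higher and a median over all genes of 0.056. Tfec itself was near 1.5 TPM in both diets. Gpnmb, a glycoprotein of lipid-laden macrophages, went from 41.5 and 44.0 TPM to 2917.9 and 3150.2 TPM (log2 fold change 6.12), and Ctsk, the collagen-cleaving protease of osteoclasts, from 6.9 and 7.6 TPM to 442.5 and 474.3 TPM (log2 fold change 5.80). Fibroblasts express Ctsk too, and the part of the higher fibroblast marker sums in its rise was not tested. Atp6v0d2, a subunit of the proton pump of osteoclasts and lysosomes, had a log2 fold change of 4.53, and Acp5, the tartrate-resistant acid phosphatase, one of 2.81. Ctsd (1.76), Clcn7 (1.22), Atp6v1h (1.17) and Ostm1 (0.79) rose too, and the call of Ostm1 ended without either HFD replicate (adjusted p = 0.0801 and 0.0744). Lamp1, Hexa and Atp6v0d1 were higher under the size limit, and Mcoln1 and Sqstm1 did not pass the test. Gpnmb and Timd4 are among the genes that the submitters name for this series, so their lists are not independent of these samples.

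**Figure D5:**
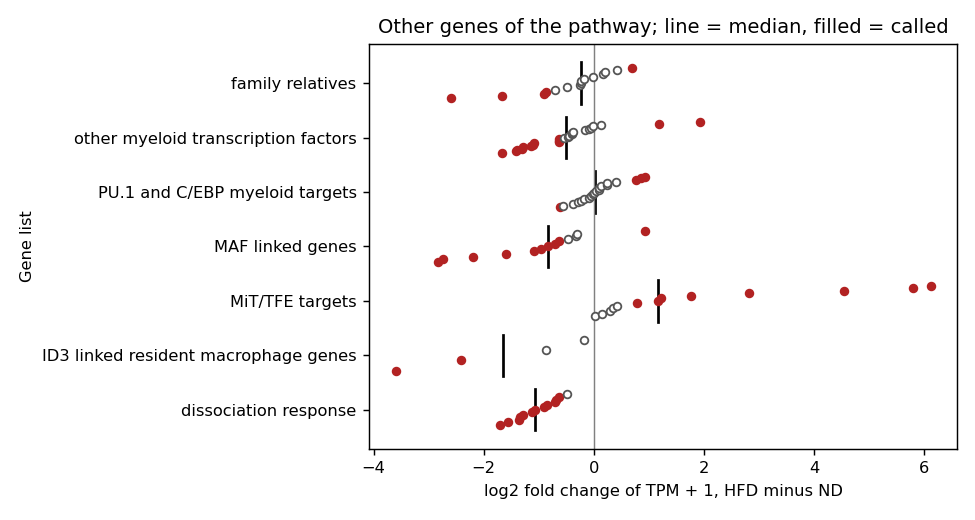
Log2 fold change of TPM + 1, HFD minus ND, for each gene tested in 7 lists, filled where called, with a black line at the median of the list. The MiT/TFE targets lie at or right of 0 with a median of 1.17, and 12 of the 13 MAF linked genes lie left of 0 with a median of -0.83.

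The changes were also set against the macrophage markers within each library. The mean log2(TPM + 1) of the 10 markers was 8.48 and 8.53 in ND and 8.66 and 8.64 in HFD, a difference of 0.14. Relative to this mean, Maf differed by -1.68, Bhlhe40 by -0.82 and Bhlhe41 by 1.62 on the log2 scale. Cebpa differed by 0.40 and Spi1 by 0.16. Cebpb (-0.55), Zeb2 (-0.32) and Tfec (-0.17) lay lower in both HFD libraries on this scale, and Id3 (-0.25) overlapped. On this scale 8 of the 9 genes did not overlap between the diets, beside 69.6% of all genes tested, and nothing is read from that count. An exact two-sided permutation test gave p = 0.333 for each of the 8, again the smallest possible value. The markers themselves did not move as 1, since Adgre1, Cd68 and Ctss rose while Csf1r was lower under the size limit.

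For each gene the transcripts with the most similar course over the 4 libraries were sought among genes whose mean reached 5 TPM, by the Euclidean distance of the log2 values after the mean of each gene was subtracted. Closest to Maf were Mx1, an interferon-induced antiviral gene at 35.2 and 37.2 TPM in ND and at 11.6 and 11.6 TPM in HFD, Fgd2 and Gabbr1, and 13 genes lay within a distance of 0.1. Closest to Bhlhe41 were Atp6v1c1, a subunit of the lysosomal proton pump at 93.5 and 98.2 TPM in ND and at 327.2 and 329.8 TPM in HFD, Galnt12 and the lysosomal enzyme gene Gusb, with 17 genes within that distance. For Bhlhe40 they were Sema6b, Anxa6 and the histone demethylase gene Kdm6b. Closest to Cebpb were Hmox1, the gene of heme oxygenase at 805.0 and 811.5 TPM in ND and at 548.4 and 704.4 TPM in HFD, Nupr1 and Spry2. For Cebpa they included Dpagt1 and Mcoln2, and they were for Spi1 Rexo4, Far2 and Rilpl2, for Zeb2 Tada2b, Sdad1 and Zfp97, for Tfec Rab8a, Ube2e1 and Bach1, and for Id3 Map3k6, Gm30543 and Got1. Only 5 genes lay within 0.1 of Id3, while 487 lay within 0.1 of Spi1. With 4 libraries in 2 diets, such likeness describes these samples alone.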

How the data were processed

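CD45+ cells of eWAT were profiled by RNA-seq in 2 ND and 2 HFD samples. Per the labels and the methods, the authors made stranded mRNA libraries, trimmed reads (Trim Galore 0.4.2, cutadapt 1.9.1), aligned them to mm10 (STAR 2.6.1e), removed duplicates (Sambamba), counted reads per gene (featureCounts 1.6.2) and deposited TPM per gene and sample. Since TPM are scaled to a fixed total, they are shares of the RNA and not amounts. The annotation and the use of strand in counting are not given in the sources used here.

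Genes that reached 1 TPM in 2 or more samples were tested as log2(TPM + 1), a pseudocount of 1, with limma 3.58.1 in R 4.3.3 (eBayes with a variance trend, no block) and Benjamini-Hochberg adjustment over 16849 genes. The paper's general statistics name one-way ANOVA or Student's test, without saying which model was fitted to the RNA-seq values, and limma was used here. Calls needed both an adjusted p-value under 0.05 and a 1.5-fold change. No count model was used, since TPM are not counts. On simulated data for this comparison with 200 of 16849 genes changed, 69.0% of the 2-fold and 92.0% of the 4-fold changes were called, the 171 calls included 10 unchanged genes, and 0 genes were called when none was changed. The simulated errors were independent of each other, and only genes above about 5 TPM were changed. These rates therefore do not cover lower genes such as Bhlhe41 and Tfec, or shifts shared by the genes of a library. TPM give no depth. Short microRNA genes fell on multiples of 0.0606 to 0.0711 TPM per read and kb, from which read numbers were approximated with GENCODE vM21 exon lengths.

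The 9 genes and the gene lists were chosen with earlier results of these data known. Named were all 9 genes, the family relatives, in each other list of factors or targets the largest rise, the largest fall and up to 3 abundant genes, abundant markers of the cell type lists, the 3 genes most like each of the 9, and further list genes chosen after their values were seen. The marker lists were for the leukocyte gate, macrophages, monocytes, neutrophils, conventional and plasmacytoid dendritic cells, B cells, T cells, NK cells, ILC2, mast cells, spermatids, fibroblasts, adipocytes, mesothelial cells and endothelial cells. Of the genes tested, 3 of 7 monocyte, 3 of 3 neutrophil, 2 of 7 conventional dendritic cell and 2 of 3 plasmacytoid dendritic cell markers were lower in HFD, 2 of 7 adipocyte markers were higher and 1 lower, 1 of 5 mesothelial markers was lower, and 0 of 6 endothelial and 0 of 6 spermatid markers were called by limma, with 5 and 0 at an unadjusted p-value under 0.05. A family relative and a gene of similar course are not reported here. Ighm and Trac were not used here, and Selenop was matched as Sepp1 by its RefSeq synonym. The settings varied were the pseudocount (0.1 or 5), the filter (none, or a mean of 5 TPM), the variance trend (none), the scaling (median ratio, quantile, or without the 50 most abundant genes), a replicate block, and the samples, each left out in turn. Sequences came from GENCODE and RefSeq. Analysis and figures used Python 3.11.15, pandas 2.3.3, scipy 1.17.1 and matplotlib 3.10.9.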

Additional observations from a re-analysis of the deposited data

How the results depend on the processing

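Maf, Bhlhe40 and Bhlhe41 were called under each alternative that kept all 4 libraries, except that a mean TPM of at least 5 removed Bhlhe41 from the test. Over all genes, 3097 were called, against 2015 at a pseudocount of 5. The deviations of same-numbered samples correlated at -0.015, which shows no pairing by replicate number. With 2 samples per diet this single value cannot exclude one. With a replicate block the adjusted p-values of Spi1 and Cebpa were 0.0859 and 0.0631, and Spib, Mitf, Id4, C1qa, Cd163, F13a1, Csf3r, Ostm1 and Marco lost their calls, as did Irf4, Runx3, Pparg, Nr4a1, Gfi1, Myb, Gata2 and Rbpj among the other myeloid transcription factors. Of the marker calls, 2 of 7 T cell, 5 of 6 NK cell, 5 of 6 ILC2, 3 of 5 mast cell, 3 of 5 B cell, 2 of 5 fibroblast, 0 of 3 neutrophil, 2 of 3 monocyte and 0 of 1 mesothelial calls were still made with the block, and 11 of 12 of the early response genes. With it 812 genes were called, among them Maf, Bhlhe40 and Bhlhe41, 2 of the family relatives, 5 of the other myeloid transcription factors and 1 of the ID3 linked genes.

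With each sample left out in turn, between 0 and 4232 genes and between 0 and 3 of the 9 genes were called. The counts of 0 came without either ND sample, where limma's adjusted p-value was 0.161 to 0.167 for the 3 genes and a diet with 1 sample is assumed to vary like the other. Over all 4 such fits the log2 fold change ranged from -1.56 to -1.50 for Maf, from -0.72 to -0.64 for Bhlhe40, from 1.74 to 1.79 for Bhlhe41, from -0.38 to 0.17 for Id3, from -0.58 to -0.23 for Cebpb, from -0.33 to -0.020 for Zeb2 and from -0.086 to 0.029 for Tfec. It ranged from -0.12 to 0.086 for Zeb1, from -0.16 to 0.16 for Cd14, from -0.027 to 0.069 for Sqstm1 and from -0.74 to 0.40 for Cd5l. Calls ranged from 0 to 6 among family relatives, 0 to 14 among other myeloid transcription factors, 0 to 5 among PU.1 and C/EBP targets, 0 to 10 among MAF linked genes, 0 to 7 among MiT/TFE targets and 0 to 3 among ID3 linked genes.

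Family relatives had 2 calls with a pseudocount of 5, 3 with no filter and 3 with a mean TPM of at least 5, and ID3 linked genes had 1 with no filter. Quantile normalization gave 0.050 for Tfec, 0.0071 for Cd14 and -0.0050 for Sqstm1, which was -0.0029 with median-ratio scaling and -0.040 without the 50 most abundant genes. None of these 3 genes was called in any of these settings. Added counts shrink ratios of low genes by construction. With a pseudocount of 5 the ratio differences were -1.64 for Bhlhe40 to Bhlhe41, -0.42 for Tfec to Mitf and 1.61 for Spi1 to Spic, and relative to the macrophage markers -1.64 for Maf, 0.36 for Cebpa and 0.82 for Bhlhe41. With 0.1 they were -2.89 for Bhlhe40 to Bhlhe41 and 2.07 for Bhlhe41 against the markers. Values near 0.1 TPM are at the last printed decimal.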
